A study of Mus musculus with 3 samples.

Results

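The cytosolic small ribosomal subunit was described through the messenger RNAs of its protein genes, read by bisulfite sequencing in mouse embryonic stem cells without Tet1, Tet2 and Tet3. Members were the genes whose symbol begins with Rps, Rpsa included, leaving out the S6 kinases (Rps6k) and the S19-binding protein (Rps19bp1). This gave 32 of 13224 named genes, or 35 of 15021 listed transcripts. Rps27 and Rps27rt, which also carry the prefix, are not analysed here. Rps23rg1, a retrogene of Rps23, came in through its name and is not a standard subunit of the ribosome. The 3 samples form 1 group, labelled Tet TKO, on a J1 background, with the genotype Tet1-/-,Tet2-/-,Tet3-/-. The cells were grown on fibroblast feeders that were removed before RNA was taken. No cells with intact Tet genes were analysed here, so every comparison is between cytosines, transcripts and genes of the same 3 libraries. The labels do not state that the samples came from separate cultures, so their spread may be technical.

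The small subunit binds the mRNA and holds the decoding site. Its proteins line the channel by which mRNA enters, the channel by which it leaves, and the head and body between which the mRNA passes. Their mRNAs are among the most abundant in growing cells, and most begin with a short pyrimidine stretch, the 5′ terminal oligopyrimidine tract, through which mTOR signalling sets their translation. Bisulfite turns unmodified cytosine into uracil, whereas 5-methylcytosine stays cytosine, as do 5-hydroxymethylcytosine and cytosines that the reagent missed. The measured quantity is therefore the unconverted share: the percentage of reads at a cytosine that still show C.

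The tables number cytosines along the transcript and give no letters around them. For 9 of the 14 members compared with the RefSeq start-site sequences (GRCm38.p6), the listed cytosines of positions 1 to 30 matched the letters with no exception, for Rps10 after a shift of 2 bases. Shown here are 4 of these starts, because they let a reader see which cytosines near the start were measured. Each line runs 5′ to 3′ from 5 bases before the first base of the transcript to its base 25. Capitals mark cytosines with at least 10 reads in all 3 libraries, called testable from here on. The lines lie at chr17:27635218-27635247 (minus strand, Rps10), chr10:23787185-23787214 (minus strand, Rps12), chr4:86857343-86857372 (minus strand, Rps6) and chr9:44407709-44407738 (plus strand, Rps25).
Rps10: ccccttcCtttCCagCCtCCgCCtCggaCC
Rps12: cggccaccgccggcCttttCCCCtgCCgCC
Rps6: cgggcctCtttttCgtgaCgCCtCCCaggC
Rps25: atcttagCgaggCtgCtgtggtCtaCaCga

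Cytosines near the start of these mRNAs were converted more fully than the rest. Over the 129 testable cytosines at positions 1 to 30, in 17 members, the unconverted share was 1.09% ± 0.0529, against 1.46% ± 0.0651 beyond position 30 (SD, n = 3). The 3 libraries gave 1.14%, 1.10% and 1.04% at the start, against 1.53%, 1.44% and 1.40% beyond it, so the ranges did not overlap. The median coverage of these cytosines was 400.3 reads at the start, against 869.7 beyond it. Of the 16 members with at least 3 testable cytosines at the start, 13 were lower there in all 3 libraries and none was higher in all 3. Rps10, a protein of the subunit's head, had 0.720% ± 0.102 at the start and 1.46% ± 0.0658 beyond it (SD, n = 3). Rps20, also of the head, had 1.18% ± 0.0749 at the start, read at a median of 6126.5 reads, and 1.54% ± 0.0368 beyond it (SD, n = 3). Other genes showed the same order, with 1.15% ± 0.0589 at the start and 1.46% ± 0.0638 beyond it (SD, n = 3). With 3 libraries the smallest p of an exact permutation test is 0.25, so no test of this order was made.

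**Figure D1:**
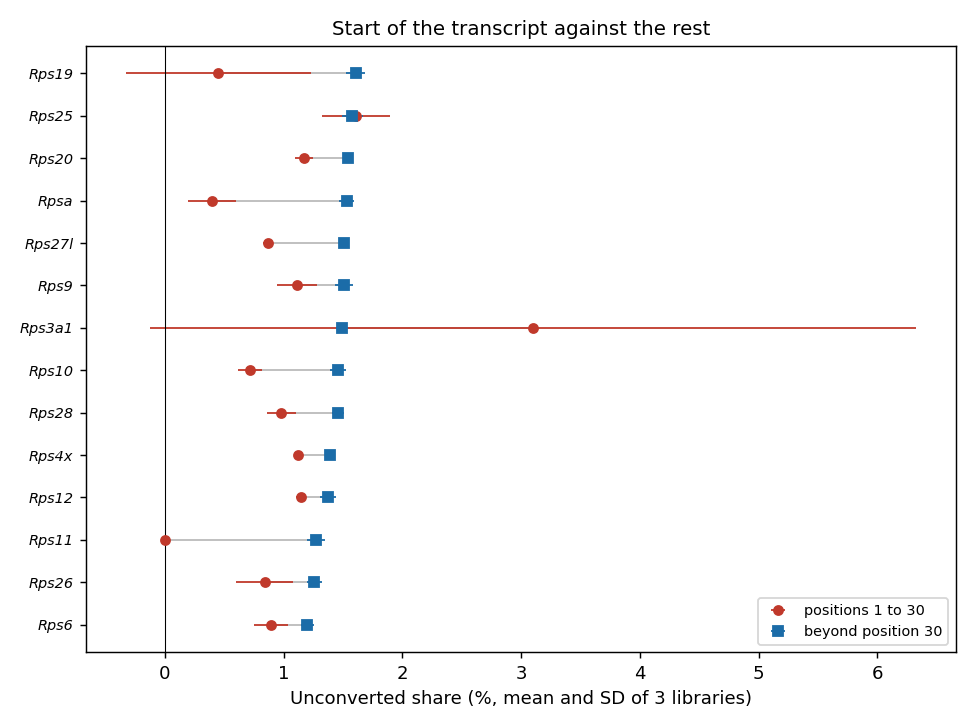
Unconverted share (%, x axis) of 14 small-subunit mRNAs (y axis), for cytosines at positions 1 to 30 (circles) and beyond (squares); points are means and bars SDs of 3 libraries. The circle lies left of its square in all 3 libraries in 12 of these, while Rps3a1 and Rps25 are the exceptions.

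Rps25, which is needed for initiation at some viral internal entry sites, was mixed: its start stood at 1.61% ± 0.285 and its remainder at 1.58% ± 0.0922 (SD, n = 3). The start was lower than the remainder in 2 of 3 libraries, with 1.52%, 1.93% and 1.38% in replicates 1, 2 and 3, so the higher mean at the start rests on replicate 2. Position 18 of Rps25, the fourth capital of its line, was unconverted at 3.86%, 5.72% and 4.62% in replicates 1, 2 and 3, and position 11, the third capital, at 2.17%, 3.46% and 4.18%. Both passed the exact binomial test described with the candidates, as did positions 24 and 26 of Rps20 at 2.24% ± 0.0607 and 2.01% ± 0.208 (SD, n = 3). These 4 of 129 start cytosines make 3.10%, where 0.275% of the start cytosines of all genes passed, at a median coverage of 27.3 reads. The beta-binomial test, which allows for spread between cytosines, called 1 of the 129. No start cytosine of the members reached a mean of 5%.

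The libraries were deep over these mRNAs. The members took 5.40%, 5.71% and 5.97% of the coverage summed over cytosines in replicates 1, 2 and 3, and their testable cytosines had median coverages of 881, 807 and 858 reads, against 33, 30 and 29 for all genes. With 0 unconverted reads at such a median, shares up to 0.341%, 0.372% and 0.350% remain possible (3 counts), and at 10 reads shares up to 30%. These limits, and all intervals given, reflect counting error alone, as PCR copies of a molecule could not be recognised. Of 10 stem cell markers 8 held testable cytosines, Nanog and Esrrb being the exceptions, and the 10 together took 0.502% to 0.530% of the coverage, of which Dppa5a had 0.204% to 0.214%. Of 10 markers of feeder fibroblasts 7 held testable cytosines, among them Col1a1, Col1a2 and Vim, and the 10 together took 0.0520% to 0.0697%, while Postn, Lum and Dcn had no listed cytosine. The part of feeder RNA in the results was not tested. Of the knocked-out genes, Tet1 had 16 to 19 listed cytosines per library, Tet2 632 to 719 and Tet3 344 to 448, at mean coverages between 6.06 and 11.7 reads. Which exons were deleted is not stated in the labels, so these reads do not check the genotype.

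Which cytosines of the small-subunit mRNAs stayed unconverted above the background was asked with a one-sided exact binomial test in each library against the share of the whole library (1.53%, 1.45% and 1.41%). Fisher's method joined the 3 p-values of a cytosine, and the Benjamini-Hochberg adjustment covered all genes, 1639820 testable cytosines. A cytosine passed the test if its adjusted p was below 0.05 and each library exceeded its own background, and was called a candidate if its mean share was also at least 10%. The test treats reads as independent and holds no spread between samples. The members held 5 candidates among 4706 testable cytosines, or 0.106%, where 0.0473% of all testable cytosines were called. Of the 5, 4 lay in Rps2. Without Rps2 the members held 1 candidate among 4454 cytosines, or 0.0225%. These shares are not matched for coverage. In all genes 172 candidates lay at a mean coverage below 20 reads and 465 from 20 to below 50, where few member cytosines lie. From 100 to below 1000 reads the members without Rps2 had 1 candidate among 1646 cytosines, and all genes 66 among 224834. So the share without Rps2 does not set the members below other genes. The other 30 members held 0 candidates among 4344 testable cytosines by the binomial test and 0 by a beta-binomial test, with 677 at an unadjusted p below 0.05, none of them at 10% or above.

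Rps2, which lines the entry channel for mRNA and starts with a stretch rich in arginine and glycine, stood out within the group. Position 703 of its transcript (NM_008503.5) was unconverted in 39 of 52 reads in replicate 1, 35 of 43 in replicate 2 and 41 of 53 in replicate 3, or 75%, 81.4% and 77.4% (exact 95% intervals 61.1% to 86.0%, 66.6% to 91.6% and 63.8% to 87.7%). The 3 libraries agree within their intervals, at a mean of 77.9% ± 3.23 (SD, n = 3, adjusted p = 1.15e-170, combined exact binomial test). The cytosine just before it, at 702, is covered by almost the same reads and was unconverted in 1 of 52, 2 of 44 and 1 of 53. The next one after it, at 710, stood at 1.52% ± 1.31 (SD, n = 3). Among the 15 other testable cytosines within 30 nt the share ran from 0% to 4.05%, so the high value belonged to a single position.

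The other candidates of Rps2 lay side by side. Position 104 was unconverted at 10.0%, 13.7% and 12.1% in replicates 1, 2 and 3, position 105 at 15.7%, 15.8% and 11.8%, and position 106 at 12.6%, 11.8% and 10.5%. Their means were 12.0% ± 1.87, 14.4% ± 2.26 and 11.7% ± 1.05 (SD, n = 3), with adjusted p of 1.92e-44, 2.21e-66 and 1.35e-46 by the combined exact binomial test. These cytosines share reads and are not independent of each other. They formed the top of a longer stretch. All 9 testable cytosines from position 101 to 130 passed the test, at a joint share of 6.51% ± 0.717, and 21 of 27 did from 131 to 230, at 3.74% ± 0.233 (SD, n = 3). From 51 to 100 the share was 1.70% ± 0.0931 with 0 of 13 past the test, and from 231 to 650 it was 1.5% ± 0.0799 with 14 of 104 (SD, n = 3). The median coverages of these windows, in order of position, were 609, 460, 1185 and 1923 reads. In all genes 1.83% of cytosines passed the test from 100 to below 1000 reads and 11.2% from 1000 reads. Position 113 passed only narrowly, at adjusted p = 0.0480 by the combined exact binomial test.

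The stretch holds 13 pairs of directly adjacent testable cytosines. The upstream one had the higher mean in 9 pairs, in 8 of them in all 3 libraries, and the downstream one in 4, for example at 104 and 105, in 1 of them in all 3. Below are the 4 pairs with a deeply read upstream cytosine at 5% or above, a choice that favours a high upstream value. Position 190 stood at 7.42% ± 1.15 and 191 at 3.17% ± 0.649 (SD, n = 3). Position 196 stood at 6.58% ± 0.790 and 197 at 3.04% ± 0.241, and position 202 at 7.87% ± 0.317 and 203 at 3.95% ± 0.805 (SD, n = 3). At 214 and 215 the difference was small, 5.97% ± 1.01 and 5.08% ± 0.651 (SD, n = 3). In these 4 pairs the upstream cytosine was the higher one in all 3 libraries, and the first 3 pairs follow each other at a distance of 6 nt. The stretch was described after its values were seen.

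All 5 candidates sat where few reads fell compared with the rest of their transcript. The mean coverage of Rps2 was 49.3 reads at 703 and 243 to 264 at 104 to 106, against a median of 759 over its testable cytosines. Around 703 the coverage declined over a longer stretch, with 1880 reads at the most and 26.7 at the least within positions 651 to 780. At 104 to 106 it dipped between 550.3 reads at position 96 and 448 at position 113. Counting only cytosines with at least 0.5 times the median coverage of their transcript, a choice made after seeing the data, left 0 candidates among 3508 in the members by the binomial and the beta-binomial test, with 662 at an unadjusted p below 0.05. In all genes 0.0423% of such cytosines were called, and 0.0884% of those below 0.5 times the median. Below that level lay 25.5% of the testable member cytosines and 10.8% of all testable cytosines. Of the large-subunit candidates 2 lay below it and 5 at or above it. Rps2 also has 12 annotated pseudogenes that bear its name (GRCm38.p6), so the origin of its reads is uncertain. Rps12 has 23 such copies, Rps19 13 and Rpsa 12. These genes held 0 candidates among 118, 161 and 290 testable cytosines, where 0.0473% of all testable cytosines were called. The part of coverage and of such copies in the high shares was not tested.

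**Figure D2:**
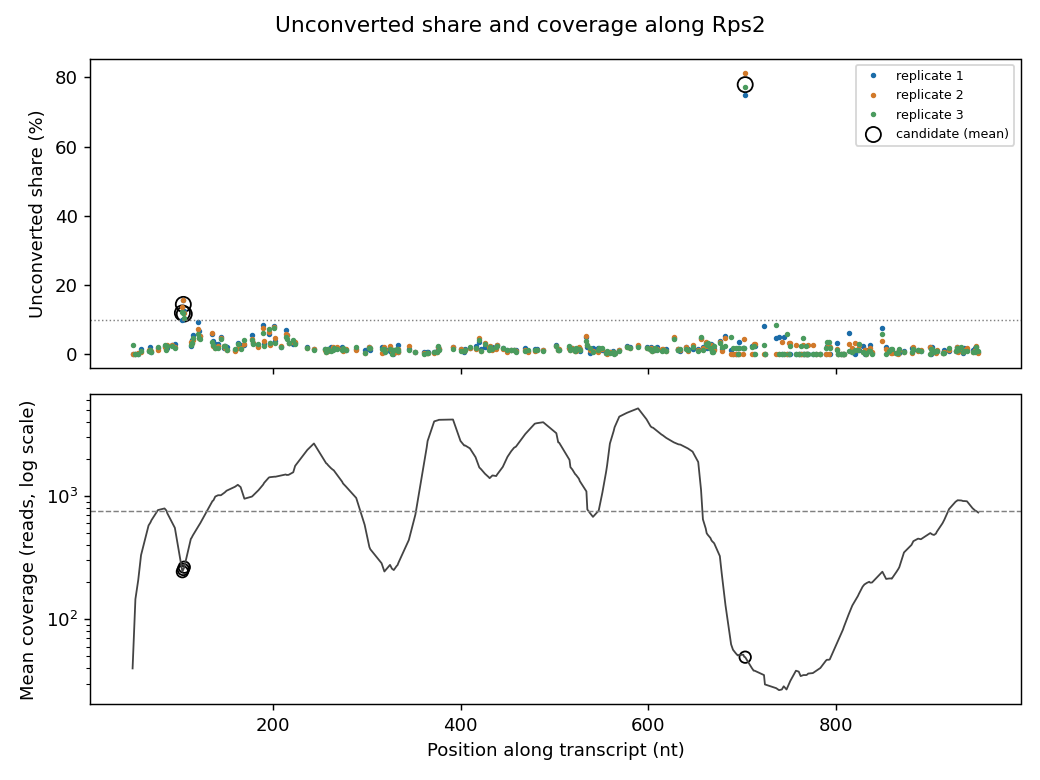
Unconverted share of each testable cytosine (top, %, points are the 3 libraries) and mean coverage (bottom, reads, log scale, dashed line at the median) along the transcript of Rps2; open circles mark candidates and the dotted line 10%. Every candidate lies below the dashed line, and the stretch of Rps2 from about position 101 to 230 stands above its surroundings.

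The remaining highest shares fell into shallow sites with few unconverted reads and deep sites with many. Position 130 of Rps19 had 5%, 12.0% and 9.09% from 1, 3 and 2 unconverted reads in replicates 1, 2 and 3 and did not pass the test (adjusted p = 0.325, combined exact binomial test). Position 4682 of Rps15a had 0 unconverted reads in replicates 1 and 2 and 3 of 12 in replicate 3. At such coverage a single library can set the mean.

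The deep sites were more uniform between libraries. At a mean coverage of at least 1000 reads, 14 of 2143 member cytosines stood at 5% or above, against 7 of 2720 in large-subunit mRNAs and 13 of 7696 in the genes outside both subunits. Of the 14, 5 belong to the stretch of Rps2 described above, and 9 are spread over 8 other members. The comparison at 5% and 1000 reads was chosen after the values were seen, and no test of it was made.

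Among the proteins of the mRNA path, Rps3, which lines the entry channel together with Rps2, had the deepest of these sites. Its position 632 (NM_012052.2) was unconverted in 727 of 9293 reads, 692 of 9044 and 726 of 9021 in replicates 1, 2 and 3, or 7.82%, 7.65% and 8.05%. The mean was 7.84% ± 0.199 (SD, n = 3), while the 15 other testable cytosines within 30 nt ran from 0.90% to 2.20%. The exact 95% interval of each library contained the shares of the other two. Position 480 of Rps3 stood at 5.50% ± 0.740 (SD, n = 3), beside 4.61% ± 0.464 at 481. Rps9, which helps to keep decoding accurate, had 6.50%, 4.98% and 6.80% at position 308, a mean of 6.09% ± 0.979 (SD, n = 3).

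Proteins of the head gave similar values. Rps10 had 6.26%, 5.89% and 5.69% at position 517, a mean of 5.95% ± 0.290 from 16994 reads (SD, n = 3), with neighbours between 1.08% and 2.35%. Rps20, which like Rps10 is ubiquitinated when ribosomes collide, had 4.94%, 5.75% and 5.06% at position 140, a mean of 5.25% ± 0.436 (SD, n = 3). Rps19, needed for maturation of the small-subunit rRNA and mutated in human Diamond-Blackfan anaemia, had 6.07%, 5.76% and 5.76% at position 365, a mean of 5.86% ± 0.177 (SD, n = 3). Its 15 neighbours within 30 nt had a median of 0.929%.

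The last of these sites lay in Rpsa and Rps24. Rpsa, also known as the laminin receptor, had 5.27%, 5.88% and 6.11% at position 123, a mean of 5.75% ± 0.430 (SD, n = 3), beside 0.734% ± 0.218 at position 120. Rps24, another gene of human Diamond-Blackfan anaemia, had 6.45%, 4.58% and 5.51% at position 511 of NM_207634.1, a mean of 5.51% ± 0.931 (SD, n = 3). All 14 deep sites passed the combined exact binomial test, for example with adjusted p = 2.97e-286 at Rps10 517 and 1.04e-64 at Rps24 511. Because the sites were chosen for a share of at least 5% at 1000 reads or more, this outcome was fixed by the choice. It adds no support for them. In none of the 14 did the coverage drop below 0.5 times the median of the transcript. Whether these cytosines carry a modified base or resist the reagent was not tested.

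**Figure D3:**
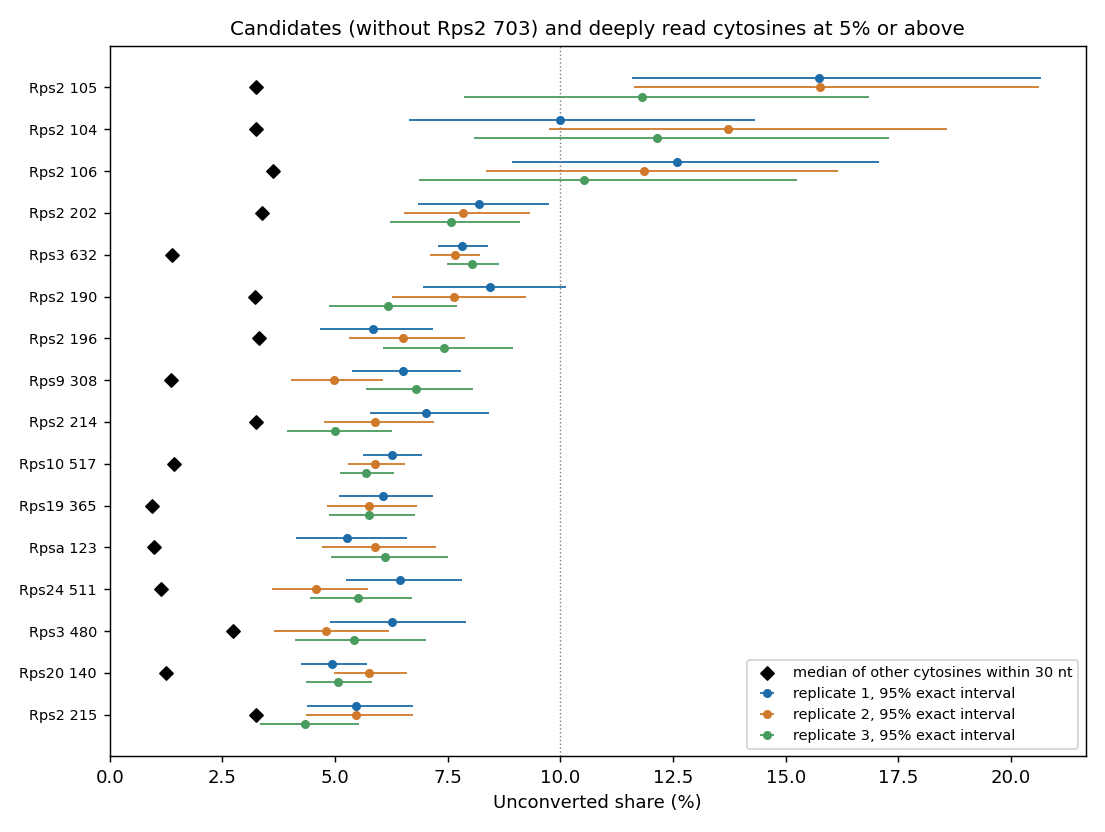
Unconverted share (%, x axis) at 3 of the 5 candidates and 13 of the 14 deeply read cytosines at 5% or above (y axis, gene and position), with each library's value and exact 95% interval; diamonds give the median share of the other testable cytosines within 30 nt. Outside Rps2 the diamonds lie between 0.929% and 2.73%, and Rps2 703 is left off because its 77.9% is beyond the scale.

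Without the level minimum, small excesses over the background were common at these depths. In 29 of the 32 members, 366 cytosines passed the test, or 7.78%, where 0.469% of all testable cytosines were called. Coverage differed greatly between these sets, and at a mean coverage of at least 1000 reads the members had 293 of 2143, or 13.7%, where 11.2% of all such cytosines were called. From 100 to below 1000 reads they had 70 of 1750, or 4%, where 1.83% were called. Without Rps2 the shares were 12.8% and 3.22%. Large-subunit mRNAs had 12.6% and 3.38% in the same bins. The beta-binomial test called 80 in place of the 366, or 1.70%, where it called 0.149% of all testable cytosines. Rps2 had the highest share past the test, 50 of 252 cytosines or 19.8%, followed by Rps18 of the head with 11 of 61 and Rps20 with 22 of 128. Rps15a, Rps23 and Rps23rg1 had 0 of 347, 0 of 32 and 0 of 45 by the binomial and the beta-binomial test, with 10, 4 and 0 at an unadjusted p below 0.05. Their median coverages of 22.3, 53.5 and 23.3 reads were the lowest of the members.

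**Figure D4:**
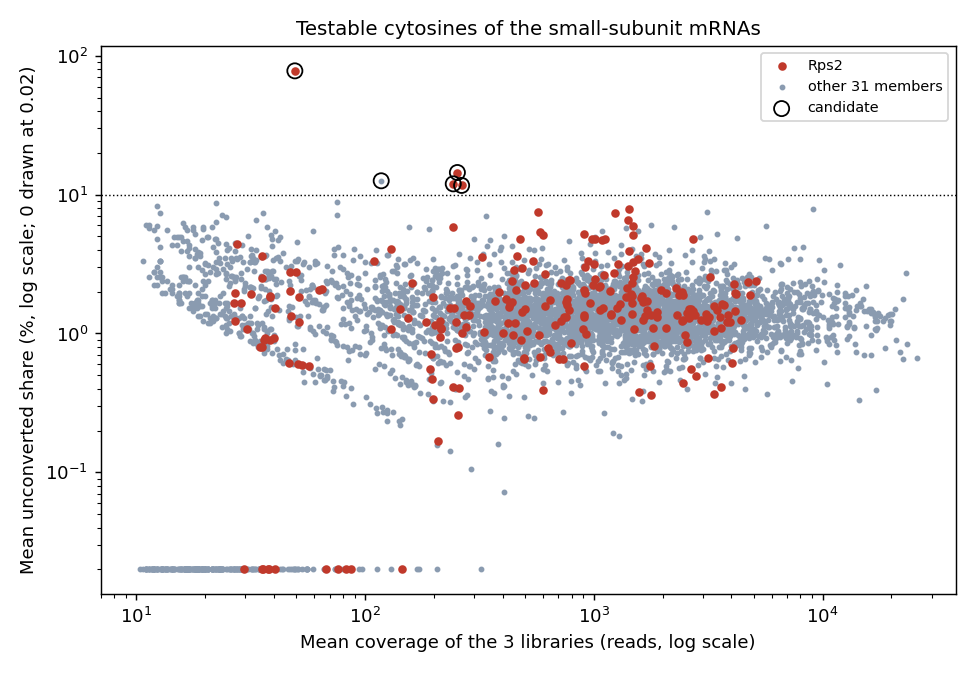
Mean unconverted share (%, log scale, 0 drawn at 0.02) against mean coverage (reads, log scale) of the 4706 testable cytosines of the small-subunit mRNAs, with Rps2 in red, the other 31 members in grey-blue and the 5 candidates circled. The candidates lie between 49.3 and 264 reads, and no cytosine with 1000 reads or more reaches the dotted line at 10%.

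Averaged over their length, the small-subunit mRNAs were converted like other mRNAs. Their unconverted share over all reads was 1.52%, 1.44% and 1.40% in replicates 1, 2 and 3, against 1.53%, 1.45% and 1.40% in other genes. The difference was -0.00826 ± 0.00330 percentage points (SD, n = 3), lower in 3 of 3 libraries (exact two-sided sign-flip permutation test, p = 0.25, the smallest 3 libraries allow). The spread between libraries was larger, 0.0647 in the members and 0.0637 in other genes. That spread largely cancels in a difference taken within each library, whose own SD is the 0.00330 given. Without Rps2 the difference was -0.0228 ± 0.00398, with the same p of 0.25 in the exact permutation test. Against large-subunit mRNAs, at 1.45% ± 0.0705, the difference of 0.00115 ± 0.00587 changed sign between libraries (SD, n = 3). The median gene-level share was 1.44% over the 32 members and 1.44% over all 9002 genes with a testable cytosine.

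Among themselves the members covered a wider range than the libraries. Of the 32, 14 lay above their library's share in all 3 libraries, 14 below it in all 3, and 4 were mixed. The same split is not given for all genes, so it does not set the members apart. Rps2 was highest, with 1.94%, 1.85% and 1.72% in replicates 1, 2 and 3, a mean of 1.84% ± 0.112 (SD, n = 3). Rps23, a protein of the decoding centre, followed with 1.76% ± 0.0849 from only 32 testable cytosines. Among members with at least 50 testable cytosines the next were Rps24 with 1.67% ± 0.110 and Rps18 with 1.66% ± 0.0440 (SD, n = 3). Rps6, whose protein is phosphorylated by the S6 kinases, was lowest with 1.26%, 1.19% and 1.15%, a mean of 1.20% ± 0.0545 (SD, n = 3). Rps27a, made as a fusion with ubiquitin, had 1.22% ± 0.0476, and Rps26, which lies at the mRNA exit, 1.26% ± 0.0646 (SD, n = 3). The lowest library of Rps2 lay above the highest of Rps6. For comparison, 90% of the 6000 genes with at least 50 testable cytosines lay between 1.21% and 1.75%, and only Rps2 above and Rps6 below that range among such members.

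**Figure D5:**
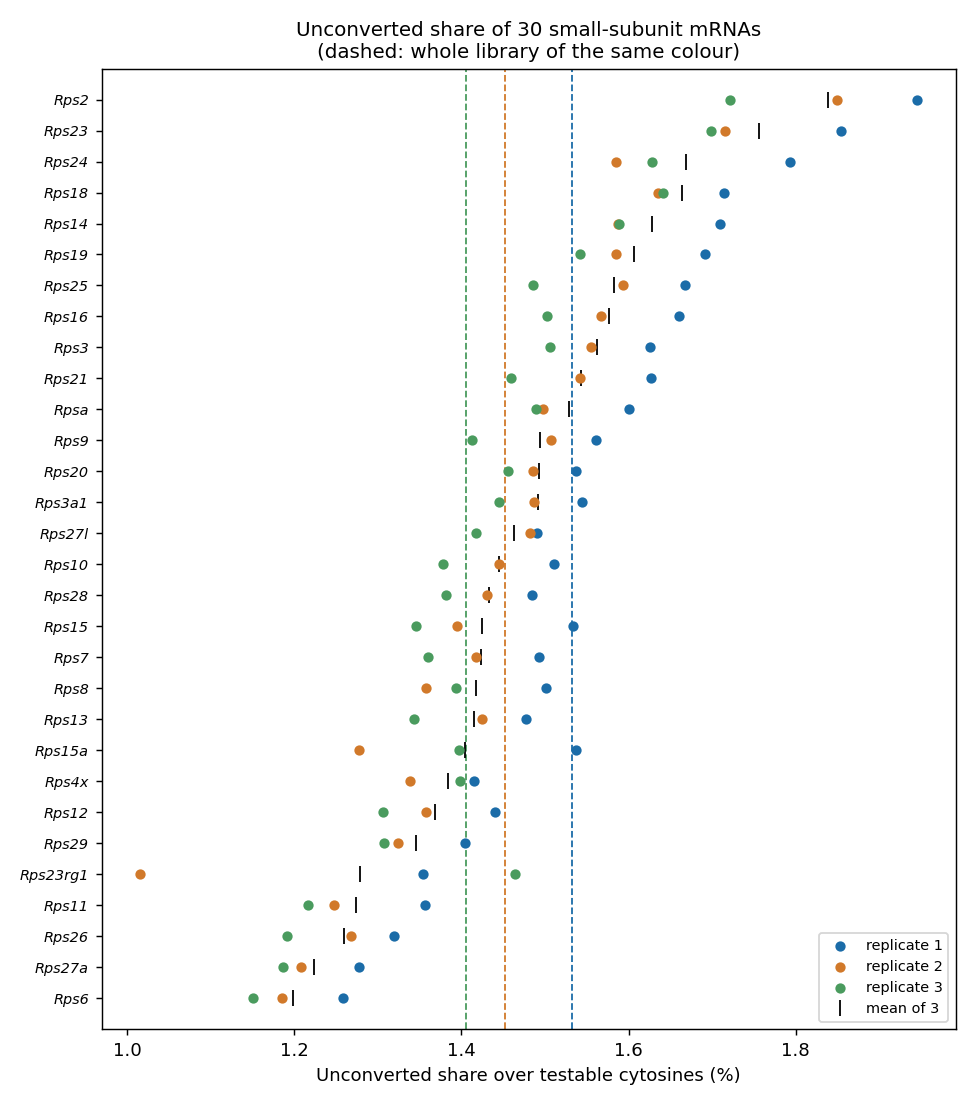
Unconverted share over testable cytosines (%, x axis) of 30 small-subunit mRNAs (y axis, ordered by mean), with the 3 libraries as coloured points, the mean as a bar and dashed lines at each whole library's share. Replicate 1 is the highest library in all rows but that of Rps23rg1, and the means run from 1.20% in Rps6 to 1.84% in Rps2.

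Coverage, a rough measure of abundance, differed widely between the members. Rps12 took 0.626% ± 0.0426 of all coverage, Rps20 0.395% ± 0.0275, Rpsa 0.381% ± 0.0170 and Rps3 0.361% ± 0.00720 (SD, n = 3). Rps23 and Rps23rg1 took 0.00143% ± 0.000140 and 0.00148% ± 0.000241. These shares are not divided by length and depend on how the authors placed reads that match several transcripts. The listed cytosines of Rps24 began at position 355 or later in each of its 3 transcripts, those of Rps27a at 155 and 180 in its 2 transcripts, and those of Rps18 at 242, so low coverage of a member does not show low expression. Rps23, Rps18 and Rps28 had the fewest listed cytosines, with 40, 65 and 80. Rps27l, a relative of the unlisted Rps27 that is induced by p53, had 1.46% ± 0.0400 over 77 testable cytosines (SD, n = 3). Rps23rg1 had 1.28% ± 0.233 over 45, a spread that covers most of the other members (SD, n = 3).

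The partners of the small subunit were taken by their known role, as further components, assembly factors and kinases. Of the further components, Rack1, a signalling scaffold on the subunit's head, held 1 candidate. Its position 279 (NM_008143.3) was unconverted in 184 of 1956 reads, 199 of 1865 and 190 of 1911 in replicates 1, 2 and 3, or 9.41%, 10.7% and 9.94%. The mean of 10.0% ± 0.634 (SD, n = 3, adjusted p = 1.73e-270, combined exact binomial test) only just met the minimum, and without replicate 2 it was 9.67%. It is 1 of 2 candidates in all genes with a mean coverage of at least 1000 reads, and the median of its 16 neighbours within 30 nt was 0.939%, with 5.48% at the most. Fau, which encodes the subunit protein S30 as a fusion, held 0 candidates by the binomial and the beta-binomial test, with 13 of 85 cytosines at an unadjusted p below 0.05, and reached 5.73% ± 1.09 at position 75 (SD, n = 3). The 18 assembly factors of the small subunit had 0 candidates among 4587 testable cytosines by the binomial and the beta-binomial test. Of these cytosines 153 had an unadjusted p below 0.05 and 20, or 0.436%, passed the adjusted test. In all genes 0.469% of testable cytosines did. The gene-level shares of the assembly factors ran from 0.946% in Tsr2, which had 3 testable cytosines, to 1.81% in Pno1. Of the 8 S6 kinases and relatives, 7 had testable cytosines, 770 in all, with 0 candidates by the binomial and the beta-binomial test. Of the 770, 0 passed the adjusted test and 11 had an unadjusted p below 0.05. In all genes 0.0473% of testable cytosines were candidates, so 0 candidates does not set the assembly factors or the kinases apart.

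Large-subunit mRNAs held a like number of candidates, spread over more genes. In 49 genes with testable cytosines there were 7 candidates among 7129, or 0.0982%, in 6 genes. The small subunit had 5 among 4706, or 0.106%, in 2 of 32 genes, and the adjacent positions 104 to 106 of Rps2 count separately among them. In all genes 0.0473% of testable cytosines were called. No test of this difference was made, since cytosines of 1 mRNA share reads.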

How the data were processed

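Poly(A)+ RNA of 3 samples was fragmented, treated with bisulfite and read from both ends, per the labels' protocols. BSMAP and the build mm9 are named in the submitters' processing notes; no version, counting rule or filter is named there. The deposited tables give the coverage of each cytosine as a read count (3 or more) and the unconverted reads as a fraction of it. That fraction times coverage was whole within 1e-06 and was taken as the count of unconverted reads. Of 15021 identifiers, 14932 matched a symbol by accession without version (GRCm38.p6, names only), so sites are given by transcript position, without genomic coordinates, exon or UTR.

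Tests ran over all testable cytosines (Python 3.11.15, scipy 1.17.1), and the calling was run on simulated data. The simulation drew background reads at the library's share, without spread between cytosines. It therefore does not show how the binomial test behaves where such spread exists. No pair of libraries was a copy: 4.75% to 5.49% of testable cytosines had equal coverage. Alternatives were a coverage minimum of 20 reads, other level minimums, the highest of the 3 p-values, the transcript's own background (with 100 reads at the library's share added), a beta-binomial test, and leaving out genes or replicates. Members and lists were chosen with earlier results of these data known. The rule for names took all candidates, the 5 highest other cytosines, the members with extreme coverage, share or listing, and related members; others were named after their values were seen, as were the deep cytosines at 5% or above. Values of 2 members that it took are not reported here, though they enter every count.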

Additional observations from a re-analysis of the deposited data

How the results depend on the processing

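The 5 candidates of the small-subunit mRNAs, and the 1 outside Rps2, kept these counts at a coverage minimum of 20 reads, with the highest of the 3 p-values, with the background of the same transcript and with the beta-binomial test. Leaving out a replicate gave 5 to 6 candidates, and 1 to 2 without Rps2. A level minimum of 20% left 1 and 0 candidates, of 87 in all genes (0.00531%), a minimum of 5% gave 30 and 16, of 3322 in all genes (0.203%), and a coverage of at least 0.5 times the transcript median left 0 and 0. Of the 366 cytosines past the test at any level, the count was 104 with the highest p-value and 80 with the beta-binomial test; leaving out a replicate gave 283 to 294. The cause of these lower counts was not tested. Over all genes the coverage minimum of 20 gave 490 candidates in place of 775, the highest p-value 109 and the beta-binomial test 565. The unconverted share of the members, its difference from other genes and the median of the members kept their direction, or moved by less than 1 SD, in every alternative run for them. No paired analysis was possible because there is only 1 group of samples; differences between gene sets were taken within each library. Depth was lowest in Rps15a, Rps23 and Rps23rg1 by median coverage, and it also limits the shallow parts of other members. Of 5897 listed member cytosines 4706 were testable. At a mean coverage below 20 reads 0 of 247 member cytosines passed the test, and from 20 to below 50 reads 1 of 385. In all genes 0.0370% and 0.132% passed in these bins, so the counts do not set the members apart.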

Other observations

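Libraries resembled each other more closely at the deeply read cytosines of the small-subunit mRNAs. Across the 2858 member cytosines with at least 500 reads in each library, pairs of libraries gave a Pearson's r of 0.818 to 0.824 and a Spearman's rho of 0.696 to 0.703. Without Rps2, across 2712 cytosines, r was 0.785 to 0.791 and rho 0.682 to 0.690. Across all 4706 testable member cytosines r was 0.570 to 0.610 and rho 0.437 to 0.466, and without Rps2 r was 0.229 to 0.275 and rho 0.428 to 0.458. These are descriptions across cytosines, which share reads, base composition and transcript, and carry no p.

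Runs of cytosines were not more common among the deeply read cytosines that passed the test. At a mean coverage of at least 1000 reads, 74 of the 293 member cytosines past the test (25.3%) were followed directly by a listed cytosine, against 488 of the 1850 others (26.4%). A listed cytosine directly before was found at 59 of 293 (20.1%) and at 499 of 1850 (27.0%). No test of these shares was made, since neighbouring cytosines share reads.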
